A study of Mus musculus with 24 samples.

Results

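Cytosolic ribosomal protein genes encode the proteins of the ribosomes that translate the messages of the nucleus. Members were chosen by symbol alone: Rpl or Rps followed by a number, with a final a allowed (or x after Rps), plus *Rplp0*, *Rplp1*, *Rplp2* and *Rpsa*. This took 77 of the 25965 entries of the deposited table, 46 of the large and 31 of the small subunit, and all 77 passed the filter on low values. Male C57/Bl6 mouse embryonic stem cells were grown in 2i medium with LIF and differentiated by weaning into serum medium that lacked LIF. Retroviral hairpins were added on day 2 and puromycin on day 3, and RNA was taken on days 4, 5, 6 and 7. Each day had 5 libraries: a nonsilencing hairpin (Nons1), the *Smarcc1* hairpins Smarcc1.6 and Smarcc1.7, and the *Smarca4* hairpins Smarca4.4 and Smarca4.6. *Smarcc1* encodes Baf155, a core subunit of the BAF chromatin remodelling complex, and *Smarca4* encodes Brg1, its ATPase.

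Each cytosolic ribosome joins a small subunit, which reads the message, to a large subunit, which forms the peptide bonds. The proteins are made in matching amounts, and in mammals most of their messages begin with a tract of pyrimidines at the cap, through which mTOR and Larp1 tie their translation to growth. Embryonic stem cells are known for low translation per cell, which increases as they differentiate.

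The knockdowns were read from the targets. *Smarcc1* was at 451, 259.8, 127 and 172 rpm (the deposited scale with the log2 undone) in Nons1 on days 4 to 7, at 163, 61.5, 43.6 and 71.5 rpm with Smarcc1.6, and at 192, 109, 76.4 and 80.9 rpm with Smarcc1.7. *Smarca4* was at 222, 151, 90.4 and 160.3 rpm in Nons1, at 56, 49.5, 50 and 42.2 rpm with Smarca4.4, and at 62.9, 36.3, 19.5 and 43.6 rpm with Smarca4.6. Every knockdown library was below Nons1 of the same day, at 23.7 to 60.1% of it for *Smarcc1* and 21.6 to 55.3% for *Smarca4*. By limma on log2 rpm, averaged over days, *Smarcc1* fell by 1.33 (standard error 0.205, adjusted p = 0.00115) and *Smarca4* fell by 1.79 (0.288, adjusted p = 0.00277). Without Smarca4.6 the call of *Smarca4* ended (adjusted p = 0.0692). Every fit without a hairpin has 4 residual degrees of freedom instead of 8. A call that ends in such a fit, here or below, need not rest on that hairpin.

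The ribosomal protein genes together held 5.19 to 15.3% of a library's reads, with a median of 9.41%. On day 4 the share was 6.65% in Nons1, 5.19% with Smarcc1.6, 5.29% with Smarcc1.7, 5.39% with Smarca4.4 and 6.52% with Smarca4.6. On day 5 it was 9.15, 12.2, 7.65, 8.81 and 13.3% in the same order. Day 4 was thus the lowest day of every series, and no day 4 library reached any library of days 5 to 7. On day 6 the shares were 14.6, 15.1, 9.40, 10.5 and 15.3%, and on day 7 they were 9.89, 9.44, 7.58, 9.55 and 9.43%. Day 6 was the highest day of every series, with Smarcc1.7 and Smarca4.4 well below the other 3 libraries. These are shares of RNA in bulk cultures, in which fewer cells of a type and less RNA per cell cannot be told apart.

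**Figure D1:**
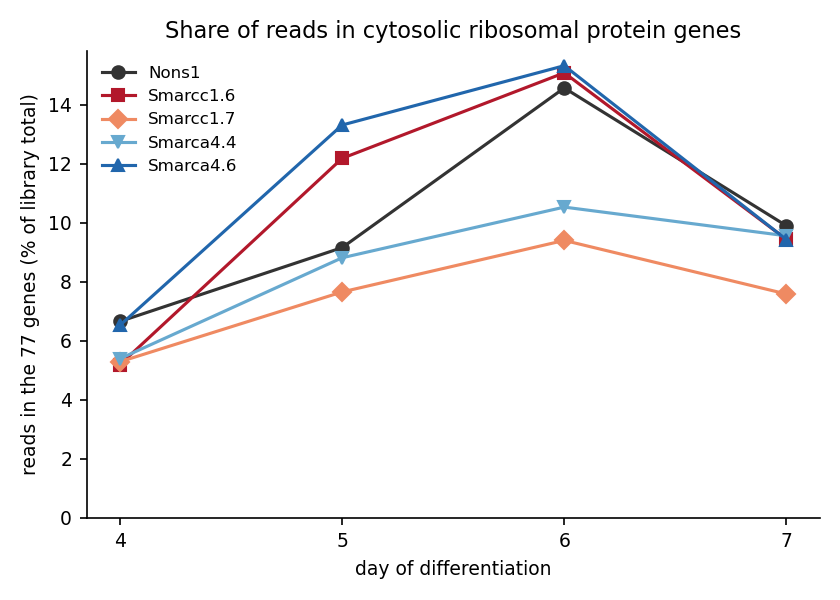
Percent of each library's reads in the 77 ribosomal protein genes on days 4 to 7, with a line for each of the 5 culture series.

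Levels differed widely between the members. Per kilobase of coding sequence, the mean over the libraries had a median of 2190.5 rpm (quartiles 1585 and 2948). The top of this scale held *Rpl13a* at 8349 rpm per kilobase, *Rps3*, a small subunit protein beside the message entry channel, at 5852, *Rps14*, a protein of the small subunit's platform, at 5797, and *Rpl41*, a very short basic peptide, at 5656. The order depends on the length used: per kilobase of transcript *Rpl13a* stayed at rank 1 and *Rps14* at rank 3, while *Rps3* went from rank 2 to 11 and *Rpl41* from rank 4 to 31 (1533 rpm per kilobase). The bottom per coding length held *Rpl29* at 204, *Rpl21* at 233 and *Rpl7a* at 702, all of the large subunit. These 3 have pseudogenes in the table, 2 entries named for *Rpl29*, 11 for *Rpl21* and 4 for *Rpl7a*, so the reads counted for them are uncertain. In all, 32 members have a named pseudogene entry and 18 are overlapped by another gene entry, 15 of them on the opposite strand, such as *Rps2* by *Snhg9*, *Rpl23a* by *Tlcd1* and *Rps18* by *Vps52*, and 3 on the same strand: *Rpl13a* by *Flt3l*, *Rpl13* by *Gm20388* and *Rpl19* by *Gm11629*. Pseudogene entries are also named for *Rpl26*, *Rps12*, *Rps19*, *Rpl28*, *Rps2*, *Rpsa* and *Rpl10*. Their values are uncertain, because neither the strand setting nor the handling of reads with many matches is given in the sources used here. Coding length ran from 138 bases in *Rpl41* to 1257 in *Rpl4*, and 14 of the members lie on chromosome 7.

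Start sites could be compared for 57 of the 77 members, which have 67 entries in the RefSeq promoter table (GRCm38.p6, the mm10 build). The windows of 6 members are shown because they span the lengths of the pyrimidine tract, as counted here, and the sizes of the changes given below. Each covers 40 bases before the start and 20 from it, and capitals mark the longest run of C and T within the 10 bases on either side of the start. They lie at chr2:26910767-26910826 on the plus strand for *Rpl7a*, chr2:39005112-39005171 on the minus strand for *Rpl35*, chr7:4792925-4792984 on the plus strand for *Rpl28*, chr17:33955646-33955705 on the minus strand for *Rps18*, chr11:68901526-68901585 on the plus strand for *Rpl26* and chr10:23787190-23787249 on the minus strand for *Rps12*.
Rpl7a: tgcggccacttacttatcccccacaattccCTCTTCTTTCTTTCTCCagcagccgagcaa
Rpl35: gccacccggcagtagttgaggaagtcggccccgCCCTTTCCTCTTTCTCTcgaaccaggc
Rpl28: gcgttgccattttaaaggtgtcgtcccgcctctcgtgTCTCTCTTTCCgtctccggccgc
Rps18: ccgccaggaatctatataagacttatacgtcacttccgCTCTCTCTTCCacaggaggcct
Rpl26: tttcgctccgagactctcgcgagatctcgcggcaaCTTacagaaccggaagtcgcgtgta
Rps12: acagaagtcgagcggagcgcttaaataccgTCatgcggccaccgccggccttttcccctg
The run counted was 17 bases long in *Rpl7a* and *Rpl35*, 11 in *Rpl28* and *Rps18*, 3 in *Rpl26* and 2 in *Rps12*. The count stops 10 bases from the start, so a run that crosses this edge is cut. The runs of *Rpl7a* and *Rpl35* go on beyond it. In *Rps12* a longer run of C and T begins just inside it, so its tract is not short throughout the window. Over the 57 members the counted run had a median of 6 bases (2 to 17), beside 4 over the 27025 genes of the table.

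Pyrimidine motifs at the start were searched on the strand of the gene, within 10 bases on either side. CTTTC was found in 17.5% of the 57 members and 2.91% of the table's genes, CTTTTC in 5.26 and 0.755%, CTCTTTC in 7.02 and 0.270%, CTTCC in 15.8 and 5.02%, and CCTTTC in 8.77 and 0.884%. CTTTC lies within CTCTTTC and CCTTTC, and at least 1 of the 5 was present in 17 members (29.8%) and in 8.37% of all genes. In the whole 300 bases, CCGGAAG, the core bound by Ets factors such as Gabpa, was found on either strand in 42.1% of the members and 9.93% of all genes. CACGTG, the E-box bound by Myc and Max, was found on either strand in 10.5 and 8.09%, and TATAAA on the gene's strand in 8.77 and 9.77%. The median log2 difference between days 7 and 4 was 0.61 for the members with a pyrimidine motif and 0.66 for those without, and the same 0.61 and 0.66 with and without CCGGAAG. For CACGTG these medians were 0.52 and 0.66, and for TATAAA 0.47 and 0.65.

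Time moved most of the ribosomal protein genes. From day 4 to day 5, averaged over the 3 groups, 61 of the 77 rose and none fell (limma, Benjamini-Hochberg adjusted p under 0.05 over 13296 genes), beside 38.7% of all genes in either direction and 19.5% higher. The median log2 difference was 0.72 (0.07 to 1.30), beside -0.03 over all genes tested. The rise was shared by the subunits: 38 of the 46 large subunit genes (median 0.66) and 23 of the 31 small subunit genes (median 0.77). Without Smarca4.6 the count was 23, beside 12.7% of all genes higher, and without Smarcc1.6 it was 40, beside 15.2%.

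Transcript length moved with this step in the other genes. Between days 4 and 5, those with transcripts up to 1000 bases (1053 genes) and of at least 4001 bases (3726 genes) had median differences of 0.15 and -0.24 in Nons1, 0.67 and -0.65 with Smarcc1.6, and 0.17 and -0.08 with Smarcc1.7. They were 0.28 and -0.05 with Smarca4.4, and 0.58 and -0.42 with Smarca4.6. Shorter transcripts were thus the higher ones in every series, and the ribosomal protein genes are short, with a median transcript of 827 bases. With the length trend of the other genes removed from each library, 55 members rose and none fell, beside 22% of all genes higher, and their median was 0.46. The part of transcript length, or of RNA quality, in the changes over days was not tested.

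*Rps12*, a protein of the small subunit's beak, had the largest rise. It was at 579, 1224, 1813 and 955 rpm in Nons1 on days 4 to 7, at 492, 1742, 2042 and 1002 with Smarcc1.6, and at 521, 1059, 1059 and 716 with Smarcc1.7. Smarca4.4 gave 521, 1176, 1427 and 969 rpm, and Smarca4.6 gave 623, 1879, 1890.4 and 927. All day 5 values lay above all day 4 values. The log2 difference was 1.30 (standard error 0.225, adjusted p = 0.000831), or 2.46-fold. *Rpl7*, a large subunit protein, rose by 1.18 (0.184, adjusted p = 0.000401). At the other end, *Rps27a*, whose product is made as a fusion to ubiquitin, was at 0.07, and *Rps29*, a short zinc-binding protein of the small subunit, at 0.26, neither past the threshold.

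From day 5 to day 6 few members passed. Of the 77, 10 (13%) rose and none fell, beside 32.3% of all genes in either direction and 17% higher, so the share that rose was below that of all genes. An unadjusted p under 0.05 was found for 26 members, all higher, and for 42.7% of all genes in either direction. The median was 0.37 (-0.15 to 0.80), with 74 estimates above 0, beside -0.01 over all genes. This count depended on the processing: it was 1 with each library centred on its median gene (15.3% of all genes higher), 23 after quantile normalization (15.7%), 23 with a block for each culture series (20.2%) and 45 with the length trend removed (21.3%).

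*Rps2*, a small subunit protein of the message entry channel, led this step. It was at 1193, 1337, 3061 and 1977 rpm in Nons1 on days 4 to 7, at 910.3, 1707, 2682 and 1915 with Smarcc1.6, and at 868, 1207, 1707 and 1397 with Smarcc1.7. In Smarca4.4 libraries it was at 946, 1366, 2008 and 1887 rpm, and with Smarca4.6 at 1099, 1805, 2920.2 and 1773. Day 6 was the top day of every series. The difference was 0.80 (standard error 0.185, adjusted p = 0.00602), and *Rps14* rose by 0.71 (0.244, adjusted p = 0.0424), a call that ended whichever hairpin was left out.

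From day 6 to day 7 the direction turned. Of the 77 members 19 fell and none rose, beside 27.5% of all genes in either direction and 10.6% lower. An unadjusted p under 0.05 was found for 46 members, all lower, and for 42.9% of all genes in either direction. The median was -0.50, with the lowest at -0.94, while the median of all genes was 0.15. Days were sampled within culture series, and with a block for each series 45 fell, beside 14.7% of all genes lower, while the additive model gave 47, beside 13.9%. With each library centred on its median gene 37 fell, beside 17.1%, and without Smarca4.6 none was called by limma (13 at an unadjusted p under 0.05, beside 28.2% of all genes), beside 2.58% of all genes called lower. With the length trend removed 18 fell and 1 rose, beside 15.4% of all genes lower, and the median was -0.29. In Nons1 the short and long bins of other genes were at 0.28 and -0.46 on day 6 relative to day 4, and at -0.07 and -0.01 on day 7. On day 6 they were at 0.54 and -0.43 with Smarcc1.6 and at 0.08 and 0.16 with Smarcc1.7. Smarca4.4 had 0.22 and -0.01, and Smarca4.6 had 0.18 and -0.41. On day 7 the bins were at 0.14 and 0.17 with Smarcc1.6 and at -0.11 and 0.29 with Smarcc1.7. Smarca4.4 then had 0.09 and -0.02, and Smarca4.6 had -0.14 and 0.19.

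*Rpl41* had the largest fall. It was at 810.5, 807, 1086 and 580.1 rpm in Nons1 on days 4 to 7, at 427, 1205, 1437 and 606 with Smarcc1.6, and at 454, 734, 617 and 319 with Smarcc1.7. With Smarca4.4 it was at 487, 741, 918 and 591 rpm, and with Smarca4.6 at 662, 1400.1, 1156 and 573. Every series was lower on day 7 than on day 6, and Smarcc1.7 was the lowest on both days. It fell by 0.94 (standard error 0.282, adjusted p = 0.0280). *Rpl13a*, a large subunit protein also known for repressing translation of inflammatory messages, fell by 0.88 (0.234, adjusted p = 0.0176), and both calls ended without either *Smarca4* hairpin. *Rpl13a* was at 4005, 4127, 8791 and 3999 rpm in Nons1, at 2151, 6451, 9237 and 4843 with Smarcc1.6, and at 2231, 3676, 5177 and 3579 with Smarcc1.7. With Smarca4.4 it was at 2483, 4940.4, 6420.2 and 4637 rpm, and with Smarca4.6 at 3705, 6685, 9821 and 4727.

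**Figure D2:**
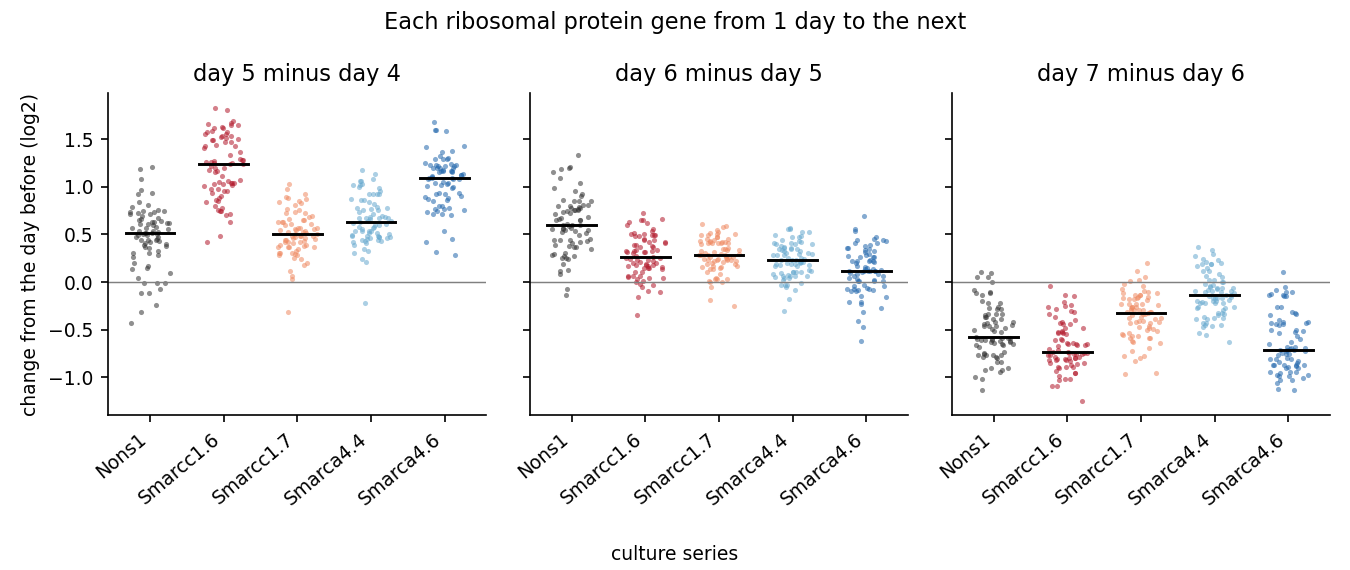
Log2 difference of each of the 77 ribosomal protein genes between successive days in each culture series; bars mark medians.

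Across the whole course, 52 of the 77 members rose from day 4 to day 7 and none fell, beside 64.5% of all genes in either direction, 35.7% higher and 28.8% lower. The median was 0.64 (-0.23 to 1.27), beside 0.08 over all genes, with 74 estimates above 0. In the large subunit 30 of 46 rose (median 0.60) and in the small subunit 22 of 31 (median 0.68). With each library centred on its median gene the count was 30, beside 30.3% of all genes higher, and the median 0.46. With the length trend removed 59 rose, beside 35.2%.

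The 5 largest rises were *Rpl26*, *Rps19*, *Rpl28*, *Rpl13* and *Rpl23a*. *Rpl26*, a large subunit protein near the exit tunnel, was at 473, 924, 1682 and 1223 rpm in Nons1 on days 4 to 7, at 439, 1349, 1631 and 1025 with Smarcc1.6, and at 436, 804, 1151 and 905 with Smarcc1.7. With Smarca4.4 it was at 465, 946, 1188 and 1171 rpm, and with Smarca4.6 at 514, 1259, 1712 and 1252. No day 4 value reached any value of the later days, and on day 7 the 5 series lay within 905 to 1252 rpm. *Rpl26* rose by 1.27 (standard error 0.18, adjusted p = 4.31e-05), or 2.42-fold. *Rps19*, mutated in Diamond-Blackfan anaemia, rose by 1.12 (adjusted p = 0.00096), *Rpl28* by 1.10 (adjusted p = 0.000377), *Rpl13* by 1.06 (adjusted p = 5.94e-05) and *Rpl23a*, a docking site for the signal recognition particle, by 1.05 (adjusted p = 9.41e-05).

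The members with the highest mean log2 rpm were mixed. *Rpl4*, which lines the exit tunnel, rose by 0.97 (adjusted p = 0.000161), whereas *Rpl13a* was at 0.52 (adjusted p = 0.0689), *Rps3* at 0.48 (adjusted p = 0.0846) and *Rps14* at 0.40 (adjusted p = 0.171). At the low end of the scale, *Rpl29* rose by 0.58 (adjusted p = 0.00491) and *Rpl21* by 0.44 (adjusted p = 0.0116), calls that ended with each library centred on its median gene. *Rpl38*, needed for translation of Hox messages in the mouse embryo, was at 0.21 (adjusted p = 0.473).

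The stalk proteins recruit the translation factors to the large subunit. *Rplp0*, its base, rose by 0.47 (adjusted p = 0.0175) and *Rplp2* by 0.61 (adjusted p = 0.0164), while *Rplp1* was at 0.44 (adjusted p = 0.0581). Both calls ended with each library centred on its median gene (adjusted p = 0.215 for *Rplp0* and 0.124 for *Rplp2*). *Rpsa*, the small subunit protein also known as a laminin receptor precursor, rose by 0.78 (adjusted p = 0.00411).

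The X chromosome holds 4 members. *Rpl10*, which acts in the joining of the subunits, rose by 0.80 (adjusted p = 0.000469) and *Rps4x* by 0.77 (adjusted p = 0.000756). *Rpl36a* was at 0.24 (adjusted p = 0.312) and *Rpl39*, a very short protein of the exit tunnel, at 0.25 (adjusted p = 0.453).

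Within the set the members did not all move alike. Each change was also taken relative to the mean of the 77 in the same library, in the same fit, an analysis added after seeing the data. From day 4 to day 7, 34 of the 77 departed from the set's mean, 18 higher and 16 lower, beside 56.9% of all genes against the same reference. By day 5, 18 had departed, 11 higher and 7 lower, beside 55.4%.

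The lower class was led by *Rps29*, *Rpl37a* and *Rpl41*. *Rps29* was at 352, 349, 318 and 273 rpm in Nons1 on days 4 to 7, at 230.2, 451, 444 and 291 with Smarcc1.6, and at 255, 260.3, 287 and 162 with Smarcc1.7. With Smarca4.4 it was at 332, 286, 279.5 and 253 rpm, and with Smarca4.6 at 312, 544, 354 and 321. It was lower on day 7 than on day 4 in Nons1, Smarcc1.7 and Smarca4.4, and higher with Smarcc1.6 and Smarca4.6. Its log2 difference was -0.23 (standard error 0.243, adjusted p = 0.414), and relative to the set it fell by 0.85 (0.149, adjusted p = 0.000565), with the 5 series from -1.15 to -0.48. *Rpl37a*, a zinc-binding protein of the large subunit, fell by 0.79 relative to the set (adjusted p = 0.000148) and *Rpl41* fell by 0.76 (adjusted p = 0.0013), against plain differences of -0.18 (adjusted p = 0.421) and -0.15 (adjusted p = 0.66). The higher class was led by *Rpl26* (0.66, adjusted p = 0.000144) and *Rps19* (0.51, adjusted p = 0.000755). Long and short pyrimidine runs, counted within 10 bases of the start, were found in both classes. Among the lower, they were 17 bases in *Rpl7a* (-0.33) and *Rpl35* (-0.27) and 3 in *Rpl37a* and *Rpl41*. Among the higher, they were 11 in *Rpl28* (0.49) and *Rps18* (0.20) and 3 in *Rpl26*.

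For days 7 and 4 the median coding length was 334.5 bases in the lower class (138 to 798), 495 in the higher class (357 to 1257) and 453 among the 43 members not called (207 to 951). For days 5 and 4 the medians were 468, 495 and 453, and the difference in length between classes was not tested. Over the 77 members the rank correlation of the difference between days 7 and 4 was 0.335 with coding length, 0.303 with transcript length and 0.232 with mean log2 rpm, given as a description since the genes share their libraries. With the difference between days 5 and 4 it was 0.173 for coding length. Whether length had a part in the result was not tested.

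**Figure D3:**
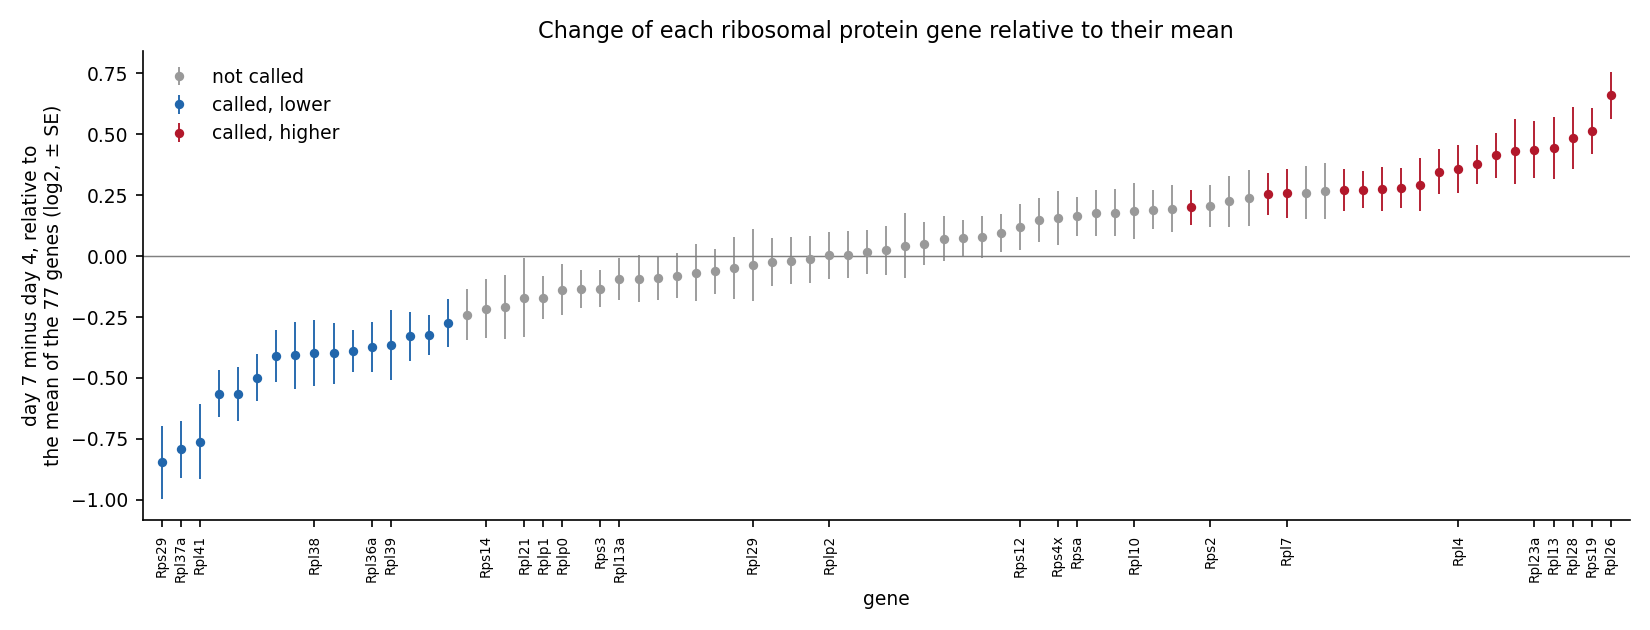
Log2 difference between days 7 and 4 of each ribosomal protein gene relative to the mean of the 77, with standard errors; blue called lower, red called higher, grey not called; names are given for the genes named by rule.

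Against Nons1, no ribosomal protein gene passed the threshold in either knockdown. With *Smarcc1* knocked down 0 of 77 were called by limma, beside 10.6% of all genes; 0 had an unadjusted p under 0.05, beside 22.8%, and limma-voom also called 0. All 77 estimates were below 0, with a median of -0.19 (-0.50 for *Rpl39* to -0.02 for *Rpl21*) and a median standard error of 0.189. The median over all genes was 0.06. With *Smarca4* knocked down 0 of 77 were called, beside 6.71%, with 0 at an unadjusted p under 0.05 (19.4% of all genes) and 0 by limma-voom. The median was -0.03 (-0.22 to 0.10), and 27 estimates were above 0. Between the knockdowns 0 were called by limma and 0 by limma-voom, beside 4.09%, with 0 unadjusted and a median of -0.16. The slopes over days gave 0 called and 0 unadjusted for each knockdown, and 0 by limma-voom, beside 0.94% of all genes for *Smarcc1* and 0.135% for *Smarca4*. These p-values rest on hairpin pairs with 8 residual degrees of freedom, and each contrast with Nons rests on the single Nons1 series. Relative to the set's mean 0 members were called by limma in either knockdown, beside 5.03% of all genes for *Smarcc1* and 1.69% for *Smarca4*, with 1 and 0 at an unadjusted p under 0.05, beside 16.2 and 10.2% of all genes.

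The hairpins of each target lay apart from each other. The median log2 difference of the 77 from Nons1 of the same day was -0.30, 0.41, 0.05 and -0.09 on days 4 to 7 with Smarcc1.6, and -0.28, -0.29, -0.63 and -0.42 with Smarcc1.7. It was -0.20, -0.08, -0.45 and -0.06 with Smarca4.4, and -0.03, 0.55, 0.06 and -0.04 with Smarca4.6. Smarcc1.7 and Smarca4.4 were thus below Nons1 on all 4 days, and Smarcc1.6 and Smarca4.6 were above it on days 5 and 6. Of the 77, 1 was below Nons1 in all 8 *Smarcc1* libraries and 0 in all 8 *Smarca4* libraries. These counts were taken for the members alone, so the share of all genes to set beside them is not known. With hairpins left out in turn, the median for *Smarcc1* was -0.40 without Smarcc1.6 and 0.02 without Smarcc1.7, and for *Smarca4* it was 0.13 without Smarca4.4 and -0.19 without Smarca4.6.

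Between hairpins of the same target the medians were large on the middle days. Smarcc1.6 minus Smarcc1.7 was -0.03, 0.70, 0.71 and 0.35 on days 4 to 7, with 26, 77, 77 and 76 of the 77 higher in Smarcc1.6. Smarca4.6 minus Smarca4.4 was 0.21, 0.65, 0.53 and 0.00, with 72, 77, 77 and 39 higher in Smarca4.6. On days 5 and 6 every member was thus higher in the same hairpin of each pair. Over all genes tested the medians on days 4 to 7 were 0.01, -0.13, -0.17 and 0.03 for the *Smarcc1* pair. For the *Smarca4* pair they were 0.01, 0.01, -0.17 and -0.01. The share of all genes higher in each hairpin was not counted, and the members share their libraries, so their number adds no replicates.

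**Figure D4:**
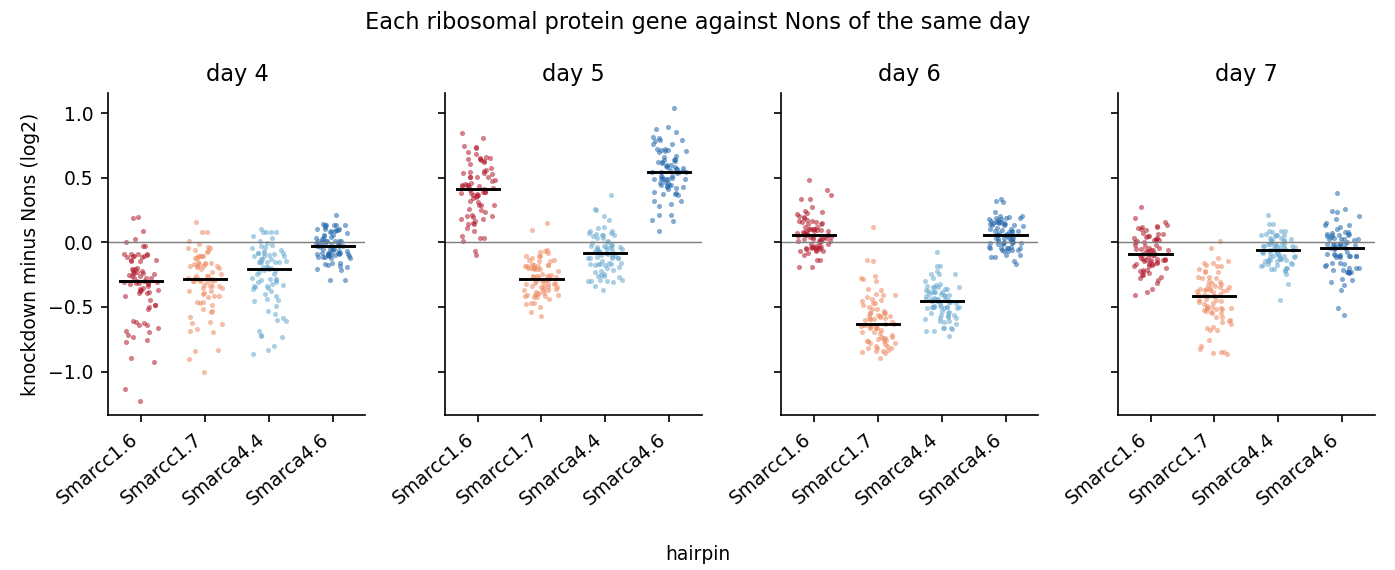
Log2 difference of each of the 77 ribosomal protein genes from Nons1 of the same day, by hairpin and day; bars mark medians.

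A fit of culture series plus day, added after seeing the data and with 12 residual degrees of freedom, compared the hairpins. Smarcc1.6 minus Smarcc1.7 gave 0 members called by limma, 67 at an unadjusted p under 0.05 and a median of 0.43, beside 0% of all genes called and 31.2% at an unadjusted p under 0.05. Smarca4.6 minus Smarca4.4 gave 0 called by limma, 66 unadjusted and 0.34, beside 0% called and 11.7% unadjusted; limma-voom was not run for these fits. Against Nons1, Smarcc1.7 had 40 members lower and none higher, beside 22.4% of all genes in either direction and 7.38% lower, with a median of -0.40. Each arm of these fits is a single culture series whose 4 days stand in for replicates, so the p-values carry no spread between cultures, and the fit was added after the shift had been seen on all 4 days. The lowest was *Rpl39* at -0.81 (standard error 0.185, adjusted p = 0.00933). Smarcc1.6 had 0 called by limma, 0 unadjusted and a median of 0.02, beside 9.49% called and 22.1% unadjusted. Smarca4.4 had 0 called by limma (15 unadjusted, median -0.19), beside 5.52% called and 24.2% unadjusted. Smarca4.6 had 0 (1 unadjusted, median 0.13), beside 6.23 and 20.8%.

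*Rpl39* was at 789, 729.8, 1246 and 733 rpm in Nons1 on days 4 to 7, at 337, 1035, 1285 and 690.1 with Smarcc1.6, and at 395, 493, 707 and 406 with Smarcc1.7. The Smarca4.4 values were 443, 609, 843 and 648 rpm, and the Smarca4.6 values were 708, 1025, 1295 and 747. Smarcc1.7 was the lowest library on days 5, 6 and 7, and Smarcc1.6 on day 4.

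Transcript length moved with the hairpin differences of days 5 and 6 across the rest of the table. On day 5, Smarcc1.6 minus Smarcc1.7 had a median of 0.48 in other genes with transcripts up to 1000 bases (1053 genes) and -0.64 in those of at least 4001 bases (3726 genes). On day 6 these were 0.52 and -0.70, and on day 4 they were 0.00 in both bins. Smarca4.6 minus Smarca4.4 was at 0.51 and -0.46 on day 5 and at 0.14 and -0.53 on day 6. On day 7 the *Smarcc1* pair was at 0.26 and -0.11, while the *Smarca4* pair had turned round, at -0.10 and 0.11, and on day 4 the latter was at 0.14 and -0.08. With this length trend removed from each library, the medians of the pairs were 0.18 for *Smarcc1* and 0.20 for *Smarca4*, and 17 members (22.1%) were called lower in Smarcc1.7 than in Nons1, where 40 had been, beside 19.1% of all genes in either direction and 9.85% lower. For Smarca4.4 minus Nons1, 1 member was then called lower, beside 7.19% of all genes in either direction and 3.38% lower. The part of transcript length, or of RNA quality, in the hairpin differences was not tested.

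**Figure D5:**
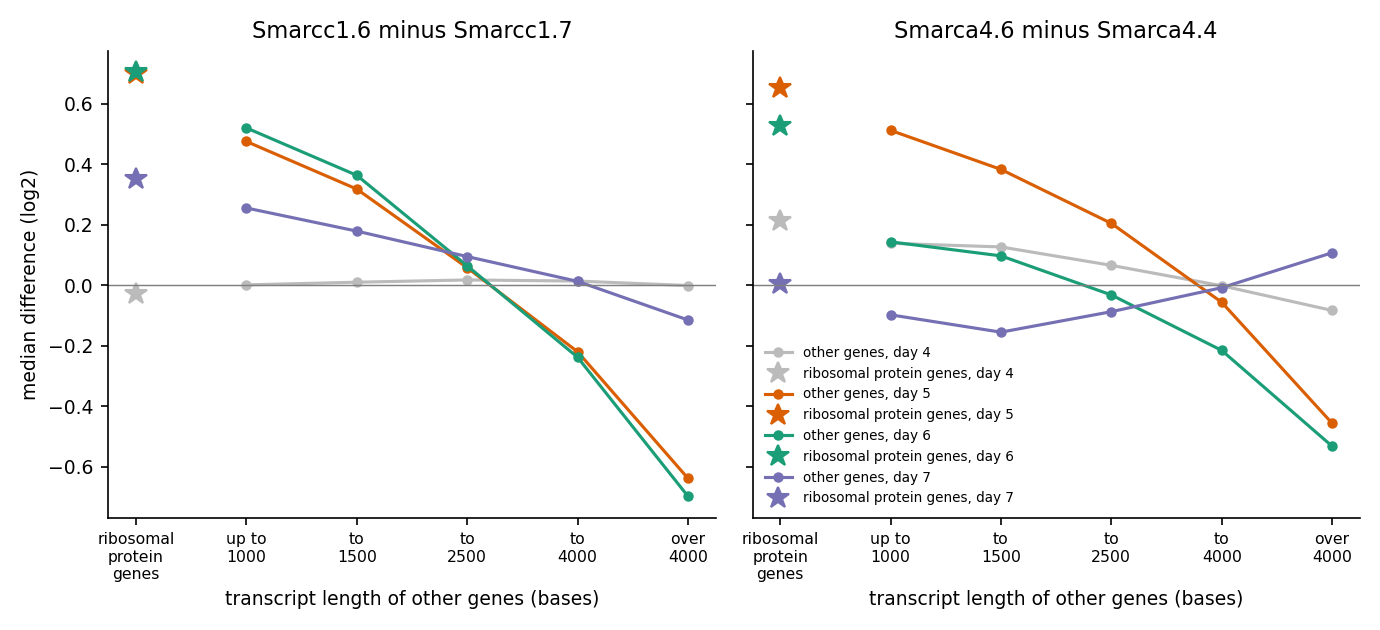
Median log2 difference between the hairpins of each target by day, for the ribosomal protein genes (stars) and for other genes in 5 bins of transcript length (circles).

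Genes that build ribosomes were mostly lower on day 7 than on day 4. Of 41 ribosome biogenesis genes tested, 35 fell from day 4 to day 7 and 0 rose (median -1.11), beside 28.8% of all genes lower and 35.7% higher. Among those that fell were *Polr1b*, a core subunit of RNA polymerase I (-2.22, adjusted p = 5.91e-07), and *Bop1*, which acts in maturation of the large subunit's RNA (-2.03, adjusted p = 4.34e-08). From day 6 to day 7, 19 ribosomal protein genes fell. In this step 11 of the biogenesis genes fell and 0 rose (median -0.19), beside 10.6% of all genes lower. None was called in either knockdown by limma.

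Among 33 translation factors, 7 rose and 13 fell from day 4 to day 7, beside 35.7% of all genes higher and 28.8% lower. *Eef1a1*, which brings aminoacyl-tRNA to the ribosome, rose by 1.50 (adjusted p = 1.23e-05) and *Eef2*, which drives translocation, by 1.45 (adjusted p = 2.46e-05), while *Eif3b* and *Eif3l*, subunits of an initiation factor, were lower (-1.18 and -1.09). After quantile normalization *Eef1a1* was at 0.00, but this scaling gives each rank the same value in every library. It cannot show a change in a gene that keeps its rank. Of 11 other genes whose messages carry a pyrimidine tract at the cap, 6 rose and 3 fell (median 0.42). Of all genes, 35.7% were higher and 28.8% lower. *Tpt1* rose by 0.76 and *Fau*, which encodes the small subunit's S30 protein as a fusion, by 0.74, and *Hnrnpa1*, a splicing factor, fell by 0.89 and *Vim*, an intermediate filament gene, fell by 0.69. The call of *Fau* ended with each library centred on its median gene, and that of *Vim* without Smarcc1.7 (adjusted p = 0.056). No gene of either list was called in a knockdown by limma. Of 3 host genes of small nucleolar RNAs, *Gas5* rose by 0.74, *Snhg3* fell by 1.42 and *Snhg12* fell by 0.58 (not called without Smarcc1.7, adjusted p = 0.0807), with none called in a knockdown.

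Of 17 regulators of ribosomal protein synthesis, 8 fell from day 4 to day 7, 2 rose and 7 were not called (median -0.56). Of all genes, 28.8% were lower, 35.7% higher and 64.5% called in either direction. *Mycn* fell by 3.65 (adjusted p = 4.58e-08) and *Myc* fell by 3.10 (adjusted p = 2.81e-06), transcription factors that drive ribosome production, whereas *Mycl1* of the same family rose by 0.70 and *Tsc1*, which restrains mTOR, by 0.55 (not called with libraries centred on the median gene, adjusted p = 0.0837). With *Smarcc1* knocked down *Mycn* was higher by 0.79 (adjusted p = 0.0347) and *Max*, its partner, by 0.42 (adjusted p = 0.0381). Both calls ended with a block for each culture series (adjusted p = 0.144 and 0.203) and without either *Smarcc1* hairpin. None was called with *Smarca4* knocked down.

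Of 13 paralogs that the symbol rule leaves out, 6 were in the table. From day 4 to day 7, 4 of these fell, 0 rose and 2 were not called, beside 28.8% of all genes lower. Among those that fell were *Rpl10l*, the autosomal copy of *Rpl10* used in the testis (-3.24, adjusted p = 1.35e-07), and *Rpl39l*, the copy of *Rpl39* (-2.24, adjusted p = 8.15e-06). With *Smarcc1* knocked down 3 of the 6 were higher, beside 10.6% of all genes called in either direction. Among them were *Rpl3l*, a form known from muscle (1.32, adjusted p = 0.00648, or 0.0697 after quantile normalization), and *Rpl10l* (1.12, adjusted p = 0.00519). *Rpl3l* was scarce, with a mean log2 rpm of 0.40, close to the filter's limit of 0. With *Smarca4* knocked down only *Rpl3l* was called (0.99, adjusted p = 0.044), and that call ended with a block for each culture series (adjusted p = 0.201). The pseudogenes, whose reads could come from the parent genes, had 60 entries and 18 tested. From day 4 to day 7, 12 rose and 0 fell (median 0.85), beside 35.7% of all genes higher. They were led by *Rpl10-ps3* (1.41, at a mean log2 rpm of only 0.13) and *Rpl9-ps6* (1.20), and none of the 18 was called in a knockdown.

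The mitochondrial ribosome and the proteasome, other large assemblies, served for comparison. Of 76 mitochondrial ribosomal protein genes 6 rose and 39 fell from day 4 to day 7 (median -0.47), beside 35.7% of all genes higher and 28.8% lower. Among them, *Mrpl23* was at 1.37, *Mrpl48* at 0.76, *Mrpl20* at -2.11 and *Mrps11* at -1.83. With *Smarca4* knocked down *Mrps24* was higher by 0.91 (adjusted p = 0.00702), a call that ended without Smarca4.6 (adjusted p = 0.11), and none was called with *Smarcc1* knocked down. Of 38 proteasome subunits tested 2 rose and 22 fell (median -0.45), beside the same 35.7% of all genes higher and 28.8% lower. *Psmb8* and *Psmb9* of the immunoproteasome rose by 5.07 and 2.12, while *Psma8*, a testis form, fell by 1.93 and *Psmc1*, an ATPase of the cap, fell by 1.36. With *Smarcc1* knocked down *Psmb8* was lower by 1.17 (adjusted p = 0.00659), and the call ended without Smarcc1.6 (adjusted p = 0.0523). None was called with *Smarca4* knocked down. In the step to day 5, 17 mitochondrial ribosomal protein genes rose and 2 fell (median 0.23), and 8 proteasome genes rose and 1 fell (median 0.24). The shares that rose were near the 19.5% of all genes that were higher, while 38.7% of all genes were called in either direction. From day 5 to day 6, 1 rose and 19 fell among the former and 1 rose and 13 fell among the latter, beside 15.3% of all genes lower, and 10 cytosolic genes rose and none fell. From day 6 to day 7, 27 and 15 fell and 0 rose in either list (medians -0.45 and -0.43), beside 10.6% of all genes lower.

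Markers moved with the days as well. The 7 pluripotency genes summed to 2080.5, 1388, 1013 and 416 rpm in Nons1 on days 4 to 7, to 2282, 1919.8, 1340.2 and 754 with Smarcc1.6, and to 2103, 1444, 902 and 576 with Smarcc1.7. With Smarca4.4 the sums were 1841, 1326, 706 and 379 rpm, and with Smarca4.6 2202, 1597, 827 and 419, with *Pou5f1* the most abundant in every library. The sum was lower on each day than on the day before in every series. From day 6 to day 7 *Pou5f1*, *Nanog* and *Sox2* fell (-1.48, -0.90 and -0.37), *Tfcp2l1* rose by 1.25, and *Klf4* (0.42), *Zfp42* (0.02) and *Esrrb* (-0.10) were not called. The 13 early differentiation genes summed to 257, 376, 1436 and 3462 rpm in Nons1, to 213, 192, 642 and 1746 with Smarcc1.6, and to 208, 232, 649.6 and 1657 with Smarcc1.7. With Smarca4.4 they summed to 231, 307, 1093 and 3013 rpm, and with Smarca4.6 to 236, 396, 1192 and 2053. The largest sums were on day 7 in every series, and *Krt8* and *Krt18* carried them, at 1569 and 1712 rpm in Nons1 on day 7. The most abundant gene on day 4 was *Otx2* in Nons1 and *Vim* in the other 4 series, and from day 4 to day 7 *Otx2* fell by 0.93 and *Vim* fell by 0.69. The 6 fibroblast genes summed to 56.3 rpm in Nons1 on day 7, 126 with Smarcc1.6, 103 with Smarcc1.7, 46.7 with Smarca4.4 and 29.6 with Smarca4.6, and on days 4 to 6 to between 6.33 and 30 rpm in every library. On day 7 the most abundant was *Col1a2* in Nons1 and *Col1a1* in the other 4 series, and both rose from day 4 to day 7 (5.67 and 3.92), whereas *Dcn*, the most abundant in Nons1 on day 4, fell by 1.65. The 4 neural genes summed to 57.8 to 182 rpm, with *Tubb3* the most abundant on day 4 and *Nes* on day 7 in every series, as *Tubb3* fell by 2.01 and *Nes* rose by 2.58. The 5 blood genes, led by *Tal1* or *Gata1*, summed to 0.509 to 2.81 rpm, with *Hba-x* and *Hbb-bh1* at 0 in all 20 libraries and *Ptprc* under 3 reads in all 20.

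Markers also differed between knockdowns and Nons1. With *Smarcc1* knocked down *Esrrb* (1.84), *Klf4* (1.81), *Nanog* (1.09), *Zfp42* (0.83), *Sox2* (0.45), *Gata4* (1.14), *Col1a1* (1.32) and *Sox1* (2.40) were called higher. *Krt18* (-0.77), *Krt8* (-0.71), *Fgf5* (-1.31), *Otx2* (-0.45) and *Dcn* (-2.95) were called lower. With *Smarca4* knocked down *Esrrb* (1.24), *Nanog* (0.84), *Zfp42* (0.78), *Gata4* (0.89), *Hand1* (1.35) and *Sox1* (2.33) were called higher, and *Fgf5* (-1.10), *Otx2* (-0.60) and *Dcn* (-2.37) lower. These moved in the same libraries as the knockdown calls of *Mycn*, *Max*, *Rpl3l*, *Rpl10l*, *Psmb8* and *Mrps24*. Their part in those results, and that of all the markers in the changes over days, was not tested.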

How the data were processed

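The data were 20 RNA-seq libraries (single-end, 75 bp) of 5 culture series. After trim_galore and alignment to mm10 (tophat or HISAT2), the authors made log2 rpm per gene in SeqMonk. Genes without reads carry each library's lowest value, worth 0.9 of a read. Totals recovered from it ran from 6829596 to 27472885 reads, so that 3 reads, the fewest told from none, are worth 0.109 to 0.439 rpm. A genotype label names a different target for the *Smarca4* libraries, and the titles were followed. Nons replicate 2, with 4 libraries, has no columns and was not analysed here.

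R 4.3.3 with limma 3.58.1 and statmod 1.5.0 fitted the log2 values (limma-trend) of 13296 genes with a mean of at least 0, as 12 cell means (group by day). Group contrasts were averaged over days. Benjamini-Hochberg p-values were adjusted over all genes tested, with 0.05 as the threshold, and limma-voom was run on the recovered reads. Members and lists were chosen with earlier results of these data known. The lists were ribosome biogenesis, translation factors, other genes with a pyrimidine tract, regulators, hosts of small nucleolar RNAs, paralogs, pseudogenes, mitochondrial ribosomal proteins, proteasome subunits and cell type markers. Genes were named by rule: the 5 members highest and lowest in mean log2 rpm, the 5 largest calls in each direction for knockdowns and days 7 against 4 (2 for single days and slopes), X-linked members, *Rplp0*, *Rplp1*, *Rplp2*, *Rpsa*, the 2 largest calls in each direction per list, and the targets; a few others illustrate a range or a start site.

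Alternatives were other filters, a pseudocount, scalings (median gene, quantile, reads outside the members), limma-voom, an additive model, culture series as a block, and leaving out hairpins or libraries. Fits without a hairpin had 4 residual degrees of freedom, against 8 in the main fit. Added after seeing the data were a fit without the library with the lowest share of its reads in genes, removal of the transcript length trend, changes relative to the members' mean, and the fit of culture series plus day. Coding and transcript lengths came from GENCODE basic transcripts. No batch was given by the labels.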

Additional observations from a re-analysis of the deposited data

Results flagged for a closer look

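A rule for values far from the rest (gap over range beyond its critical value) was applied to 27 groups of libraries and marked 4. Chance flags about 1 in 20 groups. The share of reads in the ribosomal protein genes was 7.58% with Smarcc1.7 on day 7, below the other 4 libraries of that day (9.43 to 9.89%). Smarca4.4 on day 5 had 6829596 reads in total, the fewest both of the 8 *Smarca4* libraries and of the 5 libraries of day 5. Smarcc1.6 on day 6 had 22472113 reads, the most of the 5 libraries of day 6.

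Other results stood out because a gene differed between groups by limma. Between the knockdowns (*Smarcc1* minus *Smarca4*), *Psmb8* was at -0.99 (adjusted p = 0.0135), *Psmb9* at -0.68 (adjusted p = 0.0249), *Mycn* at 0.83 (adjusted p = 0.02) and *Mycl1* at 0.47 (adjusted p = 0.0354). In the slope over days of *Smarcc1* knockdown minus Nons, *Psmb8* was at 1.05 (adjusted p = 0.0394) and *Rpl3l* at 1.23 (adjusted p = 0.0343). The mean log2 rpm of *Rpl3l* was only 0.40.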

How the results depend on the processing

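In every alternative to the fit of group by day 0 ribosomal protein genes were called in either knockdown or between the knockdowns. In either slope 0 were called in every alternative that has slopes, which the additive model lacks. The fit of culture series plus day asks about single hairpins, and called 40 members lower in Smarcc1.7 than in Nons1, or 17 with the length trend removed, and then 1 in Smarca4.4. The counts over days kept their directions, save that with the length trend removed 1 member was called higher and 18 lower from day 6 to day 7. The cause of any difference below was not tested.

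The share of all genes called moved with the setting as well. Where it is not given beside a count, that count cannot be read as a result about the members. From day 4 to day 5 the count was 61, beside 19.5% of all genes higher. It was 40 without hairpin Smarcc1.6 (15.2%), 68 without Smarcc1.7 and 23 without Smarca4.6 (12.7%). From day 5 to day 6 it was 10 (17% of all genes higher), and 1 with no filter, 1 centred on the median gene (15.3%) and 23 after quantile normalization (15.7%). The additive model gave 21, culture series as a replicate block (correlation 0.217) gave 23 (20.2%) and removal of the length trend gave 45 (21.3%). It was 3 without the library of the smallest total and 4 without the library with the lowest share in genes. Leaving out a hairpin gave 4 (Smarcc1.6), 6 (Smarcc1.7), 3 (Smarca4.4) and 3 (Smarca4.6). From day 6 to day 7 it was 19 (10.6% of all genes lower), and 37 centred (17.1%), 47 additive (13.9%) and 45 with the block (14.7%). Without the library with the lowest share in genes it was 37. Leaving out a hairpin gave 9 (Smarcc1.6), 39 (Smarcc1.7), 2 (Smarca4.4) and 0 (Smarca4.6, beside 2.58% of all genes lower). From day 4 to day 7 it was 52 (35.7% of all genes higher), and 30 centred (30.3%), with the median of the members at 0.46 against 0.64. After quantile normalization the median slopes were 0.08 for *Smarcc1* and 0.04 for *Smarca4*. Of the gene results, 983 of 1052 kept their call. *Eef1a1* from day 4 to day 7 went to 0.00 after quantile normalization, which gives each rank the same value in every library.

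Scaling moved the all-gene median. Centring took it from 0.15 to -0.05 for days 7 and 6 and from 0.08 to -0.09 for days 7 and 4, and quantile normalization to -0.01 and -0.05. The calls over all genes from day 6 to day 7 were 2248 higher and 1408 lower, against 1407 and 2278 centred and 1628 and 2192 after quantile normalization.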
